A study of Mus musculus with 11 samples.

Results

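Potassium channel genes were defined here as every gene of the deposited count table whose mouse symbol begins with Kcn, which gave 99 of 46517 Ensembl identifiers. By symbol these were 40 voltage-gated, 15 inward rectifier, 14 two-pore and 8 calcium-activated channel genes, 17 genes of auxiliary subunits, and 5 RNA genes that carry a channel name and encode no channel. Kcnt genes, whose channels are activated by sodium, were kept with the calcium-activated class. The choice used symbols alone and no measured value. RNA came from the ventricular myocardium of mice and was sequenced in bulk, giving 11 libraries in 4 groups. The KO TAC group (3 libraries) carried Lmnb2 flox/flox, the floxed gene of lamin B2, with a Tnnt2-Cre transgene, which drives Cre recombinase in cardiomyocytes, and had transverse aortic constriction (TAC), a narrowing of the aortic arch that raises the pressure load on the left ventricle. The WT TAC group (3 libraries) carried the same Cre without the floxed gene and had the same operation. The KO sham group (3 libraries) and the WT sham group (2 libraries) had these genotypes and a sham operation. Surgery was at 10 to 12 weeks of age, and no time from surgery to tissue collection is stated in the labels. A WT sham library is labelled WT without the gene name and was read as Lmnb2 WT. With that reading every group carried the Cre, and other heart cells keep Lmnb2 in the KO.

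Potassium channels let potassium leave the cell and bring the cardiac action potential back to rest. In rodent ventricle, voltage-gated channels carry the transient outward and delayed rectifier currents that repolarize the cell, and inward rectifiers set the resting potential. ATP-sensitive inward rectifiers couple membrane potential to metabolism, acetylcholine-gated ones answer the vagus nerve, and two-pore channels carry background current. A smaller outward potassium current and a longer action potential are widely described features of hypertrophied ventricle.

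The libraries held 14770383 to 17333227 counts each, so that 3 counts equalled 0.143 to 0.278 CPM. CPM is the count relative to library size, scaled by the trimmed mean of M-values (TMM), in all values below. Lmnb2 measured 9.72, 3.24 and 4.46 CPM in KO TAC and 2.86, 2.16 and 6.70 CPM in WT TAC libraries, against 0.649, 1.81 and 2.43 CPM in KO sham and 4.44 and 3.86 CPM in WT sham libraries. It was lower in every KO than in every WT sham library, but not after TAC, so KO below means the libraries labelled KO. The share of counts in mitochondrially encoded genes was 13.2 to 35.9% in TAC and 32.8 to 49.4% in sham libraries, and that of ribosomal protein genes was 0.870 to 6.73% in TAC and 0.651 to 1.72% in sham libraries. The numbers in all TAC titles are lower than those in all sham titles, so surgery and any batch that follows these numbers cannot be told apart. Each title ends in the letter M or F. The letter was F for KO TAC 3, WT TAC 1 and KO sham 2 and M for all others, both WT sham libraries among them. Nothing beyond the titles says that the libraries of a group came from separate animals, so p-values measure the spread between these samples.

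Of the 99 genes, 49 had enough counts for a test among the 14619 genes tested: 18 voltage-gated, 10 inward rectifier, 5 two-pore, 5 calcium-activated, 10 auxiliary and 1 RNA gene. The other 50 were too low to measure. No count in any library was found for 9 of them: Kcna10, Kcnj13, Kcnk7, Kcnk9, Kcnk15, Kcnk16, Kcnk18, Kcnmb2 and Kcnmb4os1. A count of 0 in all libraries allows a mean of up to 0.0167 CPM (3 counts over all libraries, counting error only). A further 41 had 1 to 82 counts over all libraries. Among voltage-gated genes these included Kcna3, Kcnb2, Kcnc1, Kcnc2, Kcnc4, Kcnd1, Kcnf1, Kcng1, Kcng3, Kcng4, Kcnh3, Kcnh4, Kcnh5, Kcnh6, Kcnh8, Kcnq3, Kcns1, Kcns2, Kcns3 and Kcnv1. Among inward rectifiers they were Kcnj1, Kcnj4, Kcnj6 and Kcnj9, among two-pore genes Kcnk4, Kcnk5, Kcnk10 and Kcnk12, and among the calcium-activated class Kcnma1, Kcnt1 and Kcnu1. Auxiliary genes below the limit were Kcne2, Kcnip1, Kcnip4, Kcnmb3, Kcnmb4 and Kcnrg, and RNA genes were Kcnab3os, Kcnd3os and Kcnmb4os2. Kcnma1, the large-conductance calcium-activated channel of smooth muscle, had 62 counts, Kcnk5 66 and Kcne2 3. Members that passed the limit only through the group where they were high had to differ, so all counts of members below describe the 49 tested genes and not the family.

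Levels between genes were compared as RPKM, which is CPM divided by the exon length in kilobases. Averaged over all libraries, Kcnk3, the acid-sensitive background channel TASK, was the highest member at 29.7 RPKM and made up 94.0% of the RPKM of its class. Kcnip2, the calcium-binding subunit of the fast transient outward channel, followed at 24.9 RPKM and made up 77.8% of the auxiliary class. Among voltage-gated genes Kcng2, a subunit that forms channels only with other voltage-gated subunits, led with 15.1 RPKM, then Kcnh2, the ERG channel of rapid delayed rectification, with 7.74 and Kcnq1, the slow delayed rectifier, with 6.55 RPKM. The order of the voltage-gated genes below Kcng2 differed with surgery: after TAC Kcnq1 averaged 6.16, Kcna5 5.30 and Kcnh2 5.02 RPKM, while after sham Kcnh2 averaged 11.001 and Kcnq1 7.02 RPKM. Among inward rectifiers, Kcnj8, the pore of vascular ATP-sensitive channels, averaged 12.1 RPKM, Kcnj5 11.9 and Kcnj3 10.3 RPKM, the last pair forming the acetylcholine-gated channel together. Their order also differed with surgery: after TAC Kcnj8 averaged 10.02, Kcnj5 7.15, Kcnj11 4.01 and Kcnj3 3.56 RPKM, and after sham Kcnj3 averaged 18.4, Kcnj5 17.5 and Kcnj8 14.6 RPKM. The calcium-activated class was low: Kcnn1 had 1.75, Kcnn2 0.802 and the sodium-activated Kcnt2 0.598 RPKM. In the auxiliary class Kcne1, the small subunit of Kcnq1 channels, had 3.42 and Kcne4, a related subunit, 1.39 RPKM. The map of levels by library shows these few leaders and a long low tail in each class.

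**Figure D1:**
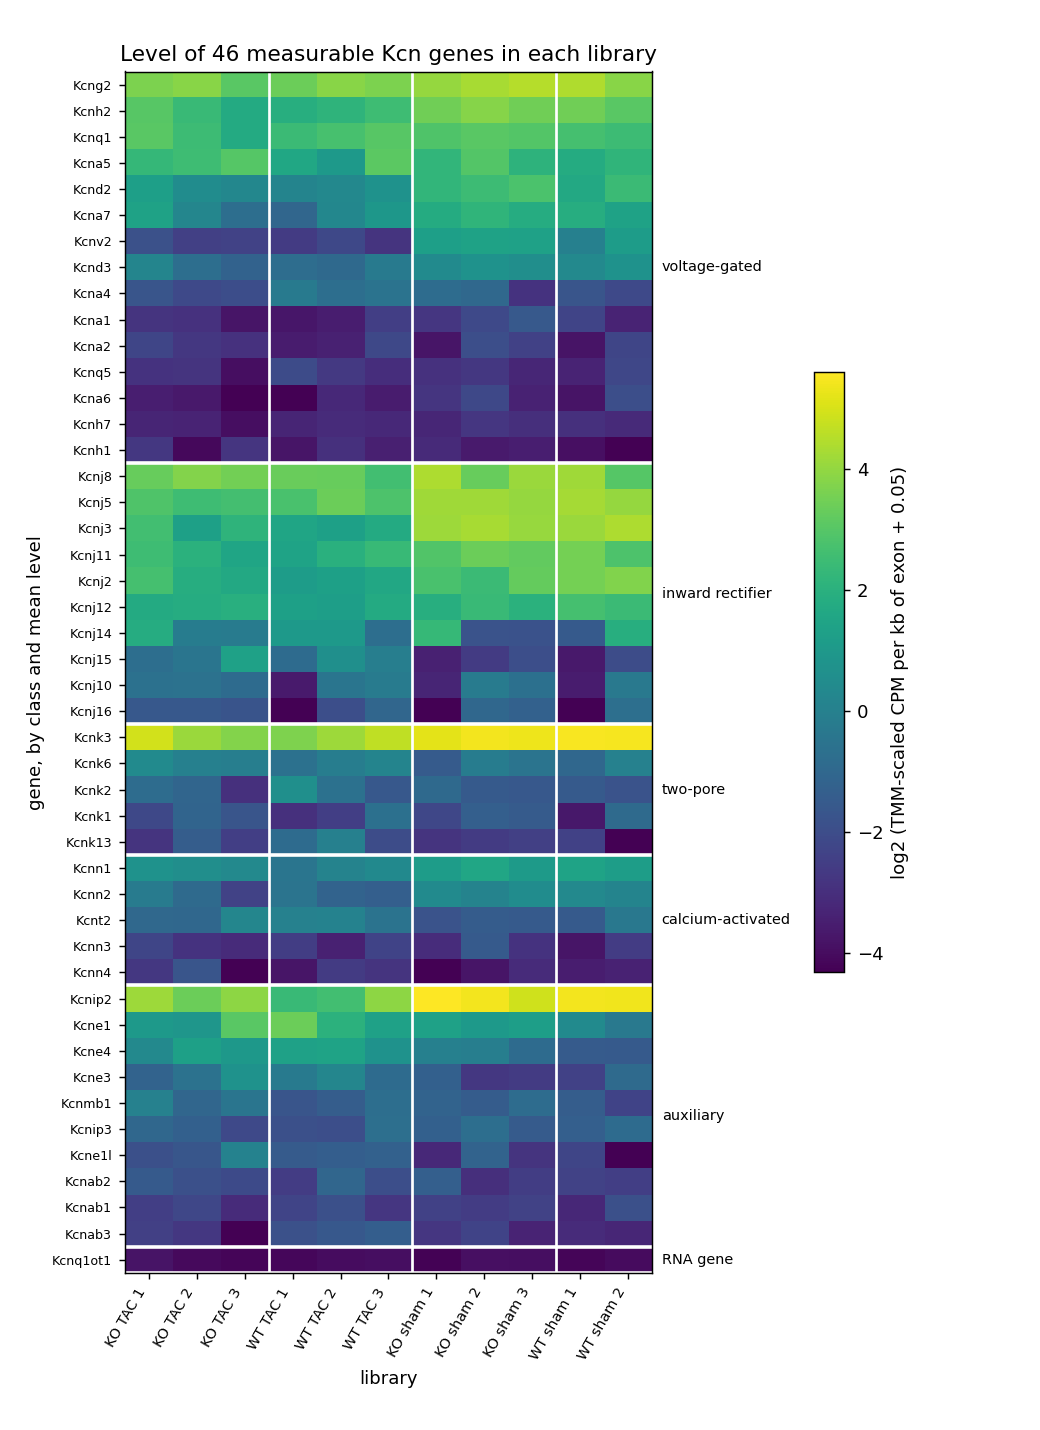
Level of 46 measurable Kcn genes in each of the 11 libraries, as log2 of TMM-scaled CPM per kilobase of exon with 0.05 added, by class and, within a class, by mean level. Columns run from KO TAC and WT TAC to KO sham and WT sham. The rows with the highest mean level over all libraries are Kcnk3 and Kcnip2, and Kcnv2 is darker in all 6 TAC libraries than in the sham libraries.

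RefSeq start sites (build GRCm38.p6) matched 72 of the 99 genes, 35 of them among the 49 tested. The 250 bases before the start are shown for the acetylcholine-gated pair and for the main inward rectifier Kcnj2. They are also shown for the pore gene Kcnd2 and the subunit gene Kcnip2 of the transient outward channel. These genes are some of those that fell after TAC over both genotypes and were chosen with that result known. Each window runs 5′ to 3′ toward the start. Capitals mark matches to a GC box (GGGCGG), an E-box (CACGTG) or a T-box factor motif (GGTGTG), on either strand, with the reverse complement CACACC for the last, and no marked matches overlap. Kcnj3 is read from the + strand of chr2:55435720-55435969, Kcnj5 from the - strand of chr9:32344345-32344594, Kcnj2 from the + strand of chr11:111065914-111066163, Kcnd2 from the + strand of chr6:21215096-21215345 and Kcnip2 from the - strand of chr19:45816064-45816313.
Kcnj3: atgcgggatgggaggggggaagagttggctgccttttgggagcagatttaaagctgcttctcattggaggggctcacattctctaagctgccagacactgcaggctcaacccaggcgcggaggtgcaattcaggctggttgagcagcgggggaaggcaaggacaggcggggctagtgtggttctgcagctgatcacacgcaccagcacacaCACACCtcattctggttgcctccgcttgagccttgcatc
Kcnj5: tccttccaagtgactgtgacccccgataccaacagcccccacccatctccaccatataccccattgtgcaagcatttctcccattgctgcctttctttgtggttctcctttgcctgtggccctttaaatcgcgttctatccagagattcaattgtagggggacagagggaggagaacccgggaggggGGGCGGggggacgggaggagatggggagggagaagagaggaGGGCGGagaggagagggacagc
Kcnj2: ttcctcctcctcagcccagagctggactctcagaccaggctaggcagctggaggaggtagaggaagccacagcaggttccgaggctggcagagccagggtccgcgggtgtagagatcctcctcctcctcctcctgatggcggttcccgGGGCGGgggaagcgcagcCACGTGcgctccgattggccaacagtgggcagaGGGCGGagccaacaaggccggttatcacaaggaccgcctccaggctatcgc
Kcnd2: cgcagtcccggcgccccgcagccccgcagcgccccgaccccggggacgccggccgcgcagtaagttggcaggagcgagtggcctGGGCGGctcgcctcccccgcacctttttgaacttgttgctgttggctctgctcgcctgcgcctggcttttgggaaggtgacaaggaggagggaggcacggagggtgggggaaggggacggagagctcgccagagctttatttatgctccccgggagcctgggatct
Kcnip2: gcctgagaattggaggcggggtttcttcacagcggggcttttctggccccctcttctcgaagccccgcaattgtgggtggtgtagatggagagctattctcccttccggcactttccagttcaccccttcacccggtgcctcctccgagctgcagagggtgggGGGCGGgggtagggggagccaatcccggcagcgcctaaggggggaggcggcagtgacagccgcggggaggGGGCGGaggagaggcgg
These windows were 58.4% G or C for Kcnj3, 58.0% for Kcnj5, 65.6% for Kcnj2, 68.8% for Kcnd2 and 66.8% for Kcnip2, against a median of 52.4% over all 32851 promoters in the table and 58% over those of the tested members. The GC box lay in the windows of Kcnj5, Kcnj2, Kcnd2 and Kcnip2, in 6 of the 11 promoters matched to genes that were lower after TAC, in 36% of the 50 promoters of tested members and in 32.7% of all promoters. The T-box motif of Kcnj3, 39 to 34 bases before the start, occurred in 3 of the 11, in 26% of promoters of tested members and in 16.3% of all. The E-box of Kcnj2, 84 to 79 bases before the start, occurred in 1 of the 11, in 10% of tested members' promoters and in 6.02% of all. The Iroquois motif (ACANNTGT) occurred in 1 of the 11, that of Kcna7, in 2% and in 6.31%. The other motifs searched had 0 matches in the 11. The letters TATAAA of the TATA box occurred in 2% of promoters of tested members and in 12.4% of all. Those of the GATA factor motif (AGATAA) occurred in 4% and in 9.99%. The TEAD factor motif, written CATTCC, occurred in 12% and in 12.6%. The estrogen-related receptor motif was searched as AAGGTCA and occurred in 4% and in 4.08%. These are matches of letters only.

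TAC against sham, the comparison of pressure-loaded with unloaded ventricle, changed 18 of the 49 members over both genotypes, 15 of them downward (edgeR quasi-likelihood test, Benjamini-Hochberg adjusted p under 0.05 over all genes). The 15 that fell were Kcnv2, Kcnd2, Kcnd3, Kcnh2, Kcng2 and Kcna7 (voltage-gated), Kcnj3, Kcnj5, Kcnj2, Kcnj11 and Kcnj12 (inward rectifiers), Kcnk3 (two-pore), Kcnn1 and Kcnn2 (calcium-activated) and Kcnip2 (auxiliary). The 3 that rose were Kcne4, Kcne3 and Kcnj15, of which Kcne3 passed the limit for a test only through TAC libraries. Over all genes tested, 8.96% fell and 10.6% rose in this comparison, so falls were 15 of 49 here and rises 3 of 49. When libraries were scaled by their totals alone, 7 members fell and 5 rose over both genotypes, 10 of them among the 18. The falls of Kcna7, Kcnd3, Kcng2, Kcnh2, Kcnj12, Kcnk3, Kcnn1 and Kcnn2 did not pass there, and Kcne1 and Kcnt2 passed as rises. In KO alone 4 members fell, where 1.37% of all genes did, and 1 rose, where 3.32% did. In WT alone 8 fell, where 3.04% of all genes did, and 1 rose, where 3.88% did. These within-genotype counts depended on single libraries: the 5 calls in KO became 13 without KO TAC 1 and 3 without KO TAC 2, KO TAC 3 or KO sham 3, and the 9 in WT became 15 without KO TAC 1 or WT TAC 3, 5 without WT TAC 1 or WT TAC 2, 2 without WT sham 1 and 3 without WT sham 2. With library totals, 4 members rose and 4 fell in KO, and 3 rose and 4 fell in WT. The median log2 change of the 49 members was -0.18 over both genotypes, against 0.05 over all genes.

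Without any model but on TMM-scaled CPM, every TAC library lay below every sham library for 13 of the 49 members, against 7.01% of all genes tested. Of the 15 genes that fell, 12 were among these, all but Kcng2, Kcnj2 and Kcnj12. Statements below on the overlap of TAC and sham libraries are on this scale too, and some do not hold on library totals. Every TAC library lay above every sham library for 2 members, Kcne4 and Kcnj15, against 6.58% of all genes. Summed over all 99 genes, Kcn RNA was 413.4 to 583.2 CPM in KO TAC and 359.6 to 493.3 CPM in WT TAC libraries, against 882.3 to 955.7 CPM in KO sham and 902.3 to 931.3 CPM in WT sham libraries. The TAC and sham sums did not overlap. As a share of raw counts, without TMM scaling, Kcn genes held 0.0369 to 0.0722% in TAC and 0.0650 to 0.0914% in sham libraries, which overlapped. In bulk RNA, fewer cells of a type and less RNA per cell cannot be told apart.

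By class, the voltage-gated sum averaged 138 ± 31.5 CPM after TAC (SD, n = 6) and 237 ± 33.5 CPM after sham (n = 5). The inward rectifier sum averaged 135 ± 21.4 CPM after TAC and 322 ± 18.8 CPM after sham, and the two-pore sum 86.3 ± 27.4 CPM after TAC and 173 ± 15.3 CPM after sham. The calcium-activated sum averaged 16.8 ± 1.34 CPM after TAC and 24.4 ± 1.78 CPM after sham, and the auxiliary sum 70.2 ± 16.1 CPM after TAC and 156 ± 25.2 CPM after sham. On TMM-scaled CPM, the highest TAC library lay below the lowest sham library in each of these 5 classes. The TMM factor was at least 1.03 in every TAC library and at most 0.957 in every sham library, which lowers TAC values relative to sham values. Whether the class sums stay apart relative to library totals alone was not tested, nor was the share of other gene sets that separate in this way. A sum follows its few high members: the median log2 change over both genotypes was -0.65 for the 18 voltage-gated and -0.59 for the 10 inward rectifier genes, and 0.55, -0.08 and 0.75 for the two-pore, calcium-activated and auxiliary genes. KO TAC 1 had the highest TAC value of 12 of the 15 genes that fell. The share over all genes was not computed, so this is not shown to be particular to Kcn genes. Among TAC libraries, KO TAC 1 also had the highest mitochondrial share (35.9%) and the lowest ribosomal protein share (0.870%) of counts. The part of library composition in these values was not tested. Scaling by library totals in place of TMM put the median log2 change of all genes at 0.45 over both genotypes, and changes under that scaling are relative to it.

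**Figure D2:**
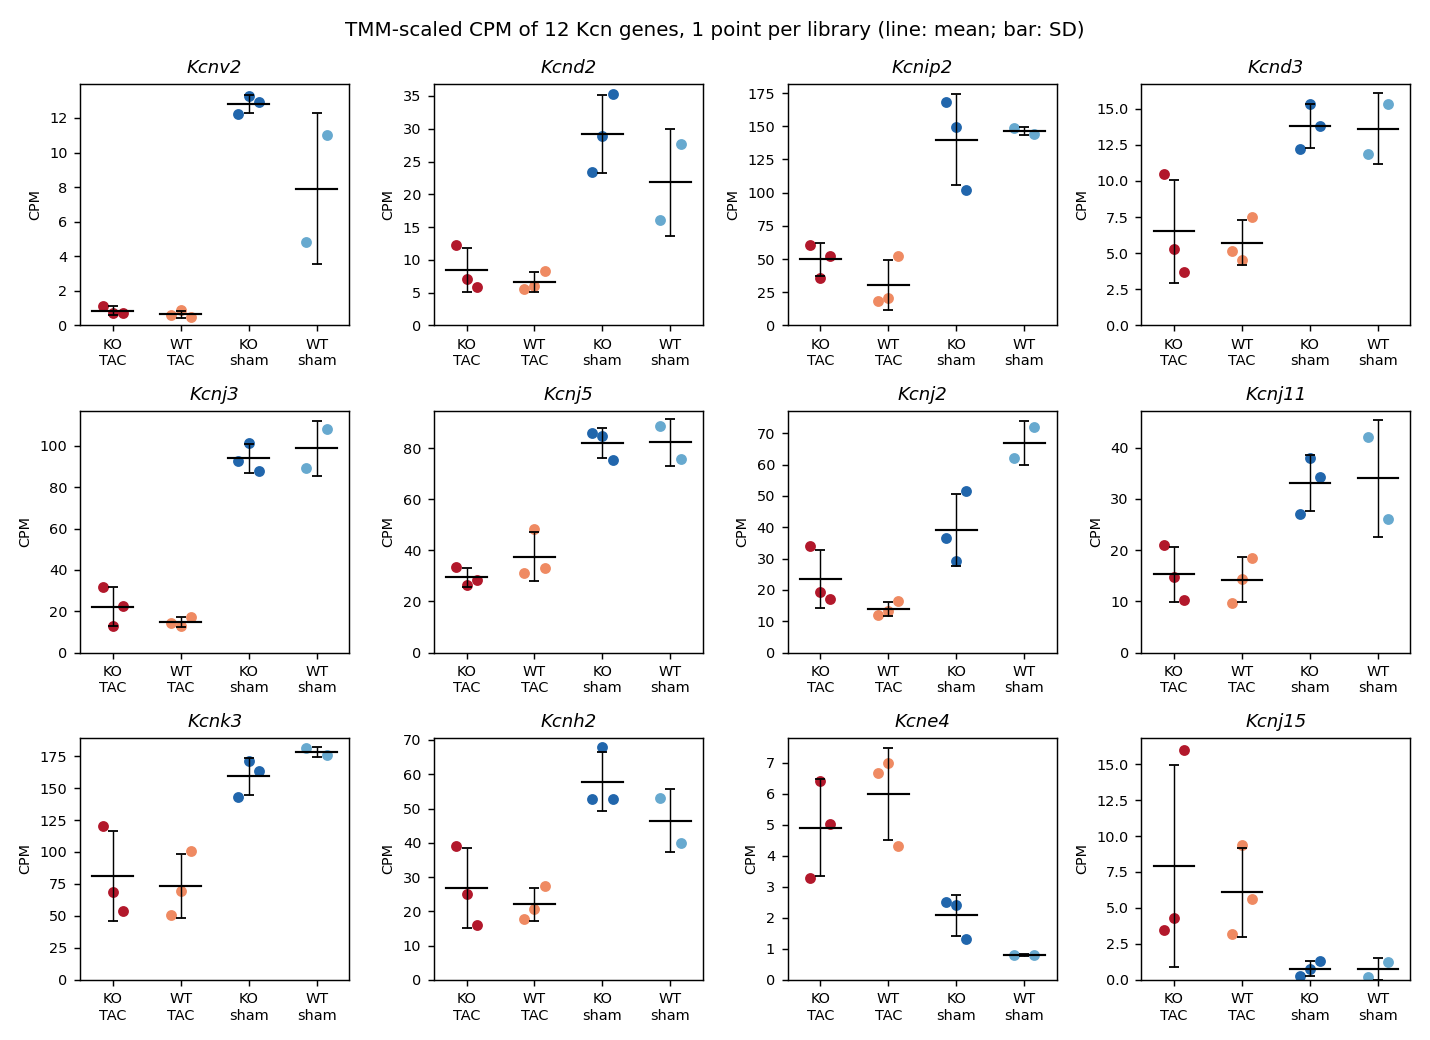
TMM-scaled CPM of 12 Kcn genes in each library (points), with the group mean (line) and SD (bar), for KO TAC, WT TAC, KO sham and WT sham (3, 3, 3 and 2 libraries). TAC points lie below all sham points for Kcnv2, Kcnd2, Kcnip2, Kcnd3, Kcnj3, Kcnj5, Kcnj11, Kcnk3 and Kcnh2, above them for Kcne4 and Kcnj15, and KO TAC 1 reaches the KO sham range for Kcnj2.

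Among voltage-gated genes the largest fall was that of Kcnv2 (ENSMUSG00000047298, chr19:27322588-27337179 of GRCm38, + strand), a modifier subunit with no channel of its own. It measured 1.14, 0.693 and 0.744 CPM in KO TAC and 0.596, 0.877 and 0.467 CPM in WT TAC libraries, against 12.2, 13.3 and 12.9 CPM in KO sham and 4.81 and 11.02 CPM in WT sham libraries. All 6 TAC libraries lay near 1 CPM or below, well under the lowest sham value, that of WT sham 1. Kcnv2 was 14.7-fold lower after TAC in KO (log2 change -3.88 ± 0.42 SE, edgeR adjusted p = 0.000874) and 12.1-fold lower in WT (-3.60 ± 0.44, adjusted p = 0.00211). Both calls held in each of 18 alternative settings. Without WT sham 2 the log2 change in WT was -2.90 (adjusted p = 0.0331).

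Kcnd2 (ENSMUSG00000060882, chr6:21215503-21729805, + strand), the pore of the fast transient outward current of rodent ventricle, measured 12.2, 7.11 and 5.89 CPM in KO TAC and 5.54, 6.08 and 8.31 CPM in WT TAC libraries, against 23.3, 28.8 and 35.4 CPM in KO sham and 16.1 and 27.6 CPM in WT sham libraries. Every TAC value was under every sham value. It fell 3.46-fold in KO (log2 -1.79 ± 0.34, edgeR adjusted p = 0.0115) and 3.28-fold in WT (-1.71 ± 0.37, adjusted p = 0.0200). The KO call was lost without KO TAC 2, KO TAC 3 or KO sham 3 (adjusted p 0.0569 to 0.0714), and the WT call in 6 of 18 settings: with library totals, with the ribosomal protein share as a term, and without WT TAC 1, WT TAC 2, WT sham 1 or WT sham 2 (0.0602 to 0.204). Over both genotypes the call on Kcnd2 held in each setting (log2 -1.76 ± 0.24, adjusted p = 0.000382). Its relative Kcnd3 measured 10.5, 5.32 and 3.72 CPM in KO TAC and 5.18, 4.5 and 7.48 CPM in WT TAC libraries, against 12.2, 15.3 and 13.8 CPM in KO sham and 11.9 and 15.4 CPM in WT sham libraries. Only KO TAC 1 came near the sham range. Kcnd3 fell over both genotypes (log2 -1.16 ± 0.26, edgeR adjusted p = 0.00822), and with library totals it did not pass (-0.74, adjusted p = 0.0757).

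Kcnh2, the ERG channel, measured 39.1, 25.1 and 15.9 CPM in KO TAC and 17.9, 20.8 and 27.3 CPM in WT TAC libraries, against 52.8, 67.9 and 52.9 CPM in KO sham and 53.0 and 39.9 CPM in WT sham libraries. On TMM-scaled CPM the groups did not overlap, although KO TAC 1 and WT sham 2 were close. Relative to library totals alone, KO TAC 1 (820 of 16952248 counts) lay above WT sham 2 (507 of 15835534 counts). It fell 2.14-fold over both genotypes (log2 -1.10 ± 0.23, edgeR adjusted p = 0.00484), and with library totals it did not pass (-0.70, adjusted p = 0.0626). Kcng2 measured 37.2, 42.7 and 25.0 CPM in KO TAC and 30.7, 42.9 and 37.0 CPM in WT TAC libraries, against 49.1, 58.9 and 67.04 CPM in KO sham and 63.2 and 42.7 CPM in WT sham libraries. WT TAC 2 and WT sham 2 were level, so the ranges met. The fall of Kcng2 passed over both genotypes only (log2 -0.64 ± 0.19, edgeR adjusted p = 0.0341). It was lost in 9 of 18 settings: with no low-count filter, with the ribosomal protein share as a term, without any one of KO TAC 2, KO TAC 3, WT TAC 1, KO sham 2, KO sham 3 and WT sham 1 (adjusted p 0.0507 to 0.132), and with library totals, where it came to -0.26 (0.427). Of its exon bases 9.10% also belong to a gene on the opposite strand, and the sources used here do not state the strand setting of the counting. Kcna7, a channel gene of heart and skeletal muscle, ranged from 0.953 to 5.58 CPM over TAC and from 5.67 to 9.72 CPM over sham libraries. It fell over both genotypes (log2 -1.42 ± 0.39, edgeR adjusted p = 0.0232), a call lost in 6 of 18 settings: with library totals, with the ribosomal protein share as a term, and without KO TAC 2, WT TAC 2, KO sham 2 or WT sham 1 (0.0517 to 0.0893).

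Other repolarizing voltage-gated genes did not pass in any comparison. Kcna5, a pore of the ultrarapid and slowly inactivating currents, measured 13.8, 16.1 and 22.8 CPM in KO TAC and 8.46, 5.79 and 24.1 CPM in WT TAC libraries, against 13.1, 21.6 and 12.2 CPM in KO sham and 9.75 and 12.8 CPM in WT sham libraries. The groups overlapped widely (log2 0.17 ± 0.33 over both genotypes, edgeR adjusted p = 0.751). Kcnq1 measured 34.1, 22.7 and 13.6 CPM in KO TAC and 21.8, 26.5 and 32.7 CPM in WT TAC libraries, against 29.8, 33.8 and 31.1 CPM in KO sham and 26.2 and 22.7 CPM in WT sham libraries, with full overlap (log2 -0.18 ± 0.23, adjusted p = 0.638). Kcna1, Kcna2, Kcna4, Kcna6, Kcnh1, Kcnh7 and Kcnq5 averaged under 0.5 RPKM, and none passed.

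After Kcnv2, the next largest falls in WT were those of the inward rectifiers Kcnj3 and Kcnj2. Kcnj3 (ENSMUSG00000026824, chr2:55435970-55598145, + strand), a pore subunit of the acetylcholine-gated channel, measured 31.6, 12.7 and 22.4 CPM in KO TAC and 14.5, 12.7 and 17.4 CPM in WT TAC libraries, against 92.6, 101.6 and 87.8 CPM in KO sham and 89.5 and 108.2 CPM in WT sham libraries. The sham values lay close together and the highest TAC value, in KO TAC 1, was far below them. Kcnj3 fell 4.23-fold in KO (log2 -2.08 ± 0.31, edgeR adjusted p = 0.00402) and 6.64-fold in WT (-2.73 ± 0.34, adjusted p = 0.00211), in each of the 18 alternative settings too. An antisense gene, Gm26794, shares 31.1% of the Kcnj3 exon bases. It held 0 to 12 counts per library. The strand setting of the counting is not stated in the sources used here, so how reads in the shared bases were assigned is not known.

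Kcnj5 (ENSMUSG00000032034, chr9:32314707-32344350, - strand), the partner of Kcnj3 in that channel, measured 33.6, 26.5 and 28.5 CPM in KO TAC and 31.0, 48.4 and 33.0 CPM in WT TAC libraries, against 85.9, 84.8 and 75.2 CPM in KO sham and 88.7 and 75.8 CPM in WT sham libraries. TAC and sham values were far apart. It fell 2.78-fold in KO (log2 -1.47 ± 0.24, edgeR adjusted p = 0.00604), a call that held in each setting, and 2.19-fold in WT (-1.13 ± 0.26, adjusted p = 0.0256). The WT call was lost in 6 of 18 settings: with library totals, with the letter that ends each title as a term, with the ribosomal protein share as a term, and without WT TAC 1, WT sham 1 or WT sham 2 (adjusted p 0.0522 to 0.196). The acetylcholine-gated channel is best known from atrium, and 6 atrial markers were listed. Bmp10 was at 0 in all libraries but KO sham 3 (0.0695 CPM), Myl7 was at 0.695 CPM or less, and Sln was highest in KO TAC 3 (1.32 CPM) and at 0.278 CPM or less elsewhere. Myl4 reached 14.8 CPM, Dkk3 36.3 CPM and Stard10 17.9 CPM. The summed 6 atrial markers ran from 15.01 to 57.1 CPM in KO TAC and 31.1 to 41.5 CPM in WT TAC libraries, against 17.4 to 21.7 CPM in KO sham and 17.5 to 20.8 CPM in WT sham libraries. Of the 3 tested, Myl4 and Dkk3 rose and Stard10 fell over both genotypes. The part of atrial cells in the results on Kcnj3 and Kcnj5 was not tested.

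Kcnj2 (ENSMUSG00000041695, chr11:111066164-111076821, + strand), the main pore of the inward rectifier current that holds the resting potential, measured 34.0, 19.4 and 16.99 CPM in KO TAC and 12.0, 13.1 and 16.4 CPM in WT TAC libraries, against 36.7, 29.1 and 51.5 CPM in KO sham and 62.0 and 72.0 CPM in WT sham libraries. In WT the 2 groups were far apart, while KO TAC 1 lay within the KO sham range. In KO the log2 change of Kcnj2 was -0.74 ± 0.31 (edgeR adjusted p = 0.213). In WT it fell 4.83-fold (-2.27 ± 0.34, adjusted p = 0.00442), and the call was lost without WT sham 1 (-2.38, adjusted p = 0.0515). Over both genotypes the fall (-1.44 ± 0.31, adjusted p = 0.00604) held in each setting. Kcnj12, a related pore gene of the same current, measured 9.01, 9.53 and 10.5 CPM in KO TAC and 6.67, 6.31 and 8.98 CPM in WT TAC libraries, against 10.1, 14.3 and 10.8 CPM in KO sham and 17.4 and 14.9 CPM in WT sham libraries. The WT groups were apart and the KO groups overlapped. In KO its log2 change was -0.28 (edgeR adjusted p = 0.626). It fell 2.20-fold in WT (log2 -1.14 ± 0.28, edgeR adjusted p = 0.0320), a call lost in 7 of 18 settings, including without WT TAC 1, WT TAC 2, KO sham 3, WT sham 1 or WT sham 2 (0.0544 to 0.220). The call over both genotypes (-0.67 ± 0.21, adjusted p = 0.0424) was lost in 11 of 18 settings, including without any one of KO TAC 2, the 3 WT TAC libraries, KO sham 2 and the 2 WT sham libraries (0.0526 to 0.151).

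The ATP-sensitive pore genes differed from each other in what passed. Kcnj11, the pore of cardiomyocyte ATP-sensitive channels, measured 20.9, 14.7 and 10.2 CPM in KO TAC and 9.77, 14.4 and 18.5 CPM in WT TAC libraries, against 27.1, 38.0 and 34.2 CPM in KO sham and 42.1 and 26.0 CPM in WT sham libraries. No TAC library reached the sham range, and the fall over both genotypes (log2 -1.18 ± 0.23, edgeR adjusted p = 0.00391) held in each setting. Kcnj8 measured 25.2, 34.0 and 28.4 CPM in KO TAC and 25.6, 24.6 and 15.4 CPM in WT TAC libraries, against 52.4, 24.6 and 43.2 CPM in KO sham and 46.0 and 19.9 CPM in WT sham libraries. Its sham values were split, with KO sham 2 and WT sham 2 low, and it did not pass (log2 -0.52 ± 0.26, adjusted p = 0.178). The difference between both genes was not tested. Abcc9, the sulphonylurea receptor partner of these pores, measured 169.3, 73.8 and 106.8 CPM in KO TAC and 53.1, 45.1 and 141.2 CPM in WT TAC libraries, against 279.9, 371.6 and 207.9 CPM in KO sham and 281.3 and 329.6 CPM in WT sham libraries, with no overlap. It fell in WT (log2 -1.94 ± 0.49, edgeR adjusted p = 0.0357) and over both genotypes (-1.58 ± 0.33, adjusted p = 0.00498). Abcc9 is also one of 8 listed pericyte and smooth muscle markers, of which Cnn1, Tagln and Cspg4 rose over both genotypes, with a list median of 0.46 (log2). The summed list ran from 977.9 to 1201 CPM in KO TAC and 790.0 to 958.3 CPM in WT TAC libraries, against 1067 to 1298 CPM in KO sham and 893.1 to 1073 CPM in WT sham libraries. The part of these cells in the result on Abcc9 was not tested.

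Kcnj15 (ENSMUSG00000062609, chr16:95257558-95300260, + strand), an inward rectifier better known from kidney and other epithelia, went the other way. It measured 3.48, 4.28 and 16.02 CPM in KO TAC and 3.22, 9.41 and 5.61 CPM in WT TAC libraries, against 0.278, 0.724 and 1.32 CPM in KO sham and 0.188 and 1.26 CPM in WT sham libraries. All TAC values were above all sham values, several of which were at only a few counts, and KO TAC 3 was the highest. Kcnj15 rose 9.92-fold in KO (log2 3.31 ± 0.80, edgeR adjusted p = 0.0343), a call lost in 7 of 18 settings, including without KO TAC 2, KO TAC 3 or any one KO sham library (0.0512 to 0.137). Its log2 change in KO was 2.31 without KO TAC 3 and 3.90 without KO sham 3. In WT the log2 change was 3.10 ± 0.94 (adjusted p = 0.0666), and over both genotypes 3.22 ± 0.59 (adjusted p = 0.00237), which held in each setting. The remaining inward rectifiers Kcnj10, Kcnj14 and Kcnj16 did not pass and differed mainly between libraries of the same group, as described below.

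Among two-pore genes Kcnk3 measured 120.6, 68.6 and 54.1 CPM in KO TAC and 50.4, 69.7 and 100.4 CPM in WT TAC libraries, against 143.2, 171.2 and 163.4 CPM in KO sham and 181.2 and 175.8 CPM in WT sham libraries. On TMM-scaled CPM the groups did not overlap, and KO TAC 1 and WT TAC 3 were nearest to sham. Relative to library totals alone, KO TAC 1 (2531 of 16952248 counts) lay above KO sham 1 (1546 of 14914283 counts). Kcnk3 fell 2.16-fold over both genotypes (log2 -1.11 ± 0.24, edgeR adjusted p = 0.00608), and with library totals it did not pass (-0.70, adjusted p = 0.0713). It did not pass within KO (adjusted p = 0.122) or within WT (adjusted p = 0.0538). Kcnk2, the stretch-activated channel TREK, measured 2.53, 2.08 and 0.400 CPM in KO TAC and 7.39, 2.98 and 1.40 CPM in WT TAC libraries, against 2.32, 1.51 and 1.39 CPM in KO sham and 1.5 and 1.18 CPM in WT sham libraries. One library, WT TAC 1, was high and the rest overlapped (log2 0.64 ± 0.57 over both genotypes, edgeR adjusted p = 0.460). Kcnk6, with 2.5 to 5.43 CPM in TAC and 1.30 to 4.09 CPM in sham libraries, did not pass either (log2 0.55 ± 0.33, adjusted p = 0.266), nor did Kcnk1 and Kcnk13, which averaged under 0.3 RPKM.

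In the calcium-activated class both leading small-conductance channel genes fell over both genotypes. Kcnn1 (ENSMUSG00000002908, chr8:70842049-70863258, - strand) measured 7.39, 6.65 and 5.55 CPM in KO TAC and 3.10, 4.73 and 5.82 CPM in WT TAC libraries, against 10.1, 13.2 and 9.45 CPM in KO sham and 12.0 and 10.4 CPM in WT sham libraries. Kcnn2 measured 6.15, 3.70 and 1.09 CPM in KO TAC and 4.89, 2.92 and 2.60 CPM in WT TAC libraries, against 9.73, 7.72 and 10.1 CPM in KO sham and 9.003 and 8.03 CPM in WT sham libraries. For both genes all TAC libraries lay below all sham libraries. Kcnn1 fell 2.46-fold in WT (log2 -1.30 ± 0.33, edgeR adjusted p = 0.0348), a call lost in 10 of 18 settings, including without KO TAC 2, WT TAC 1, WT TAC 2, KO sham 1, KO sham 3, WT sham 1 or WT sham 2 (0.0531 to 0.216). Over both genotypes its log2 change was -0.99 ± 0.22 (adjusted p = 0.00780), and that of Kcnn2 was -1.31 ± 0.35 (adjusted p = 0.0185). Without KO TAC 2 or WT sham 1 the Kcnn2 call was lost (0.0513 and 0.0579), and with library totals neither passed (0.117 for Kcnn1, 0.0693 for Kcnn2). Kcnt2 measured 3.15, 3.12 and 7.84 CPM in KO TAC and 6.73, 7.01 and 4.41 CPM in WT TAC libraries, against 1.67, 2.23 and 2.08 CPM in KO sham and 2.06 and 5.04 CPM in WT sham libraries. WT sham 2 alone reached the TAC range, and the gene just missed the threshold (log2 1.02 ± 0.34, edgeR adjusted p = 0.0506). Kcnma1, below the limit for a test, had 8, 20 and 2 counts in KO TAC and 5, 10 and 7 counts in WT TAC libraries, against 0, 4 and 4 counts in KO sham and 1 and 1 counts in WT sham libraries. Kcnn3 and Kcnn4 averaged under 0.2 RPKM and did not pass.

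Among auxiliary genes Kcnip2 (ENSMUSG00000025221, chr19:45791839-45816061, - strand) measured 60.8, 35.9 and 52.4 CPM in KO TAC and 18.4, 20.9 and 52.5 CPM in WT TAC libraries, against 168.2, 149.5 and 102.1 CPM in KO sham and 148.5 and 144.0 CPM in WT sham libraries. The TAC values were all well below the lowest sham value, that of KO sham 3. In KO the log2 change of Kcnip2, -1.49 ± 0.39, had an edgeR adjusted p of 0.0501, just over the threshold. In WT it fell 4.78-fold (-2.26 ± 0.43, adjusted p = 0.0120), a call lost without WT TAC 2, WT sham 1 or WT sham 2 (0.0570 to 0.0975). Without WT TAC 3 the log2 change in WT was -2.90 (adjusted p = 0.000825). Over both genotypes it fell in each setting (-1.84 ± 0.30, adjusted p = 0.00114). Kcnd2 and Kcnip2, pore and subunit of one channel, thus both fell, as did Kcnj3 and Kcnj5.

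Kcne4 (ENSMUSG00000047330, chr1:78816758-78820028, + strand), whose protein dampens several voltage-gated channels when expressed with them, measured 3.29, 6.41 and 5.03 CPM in KO TAC and 6.67, 7.01 and 4.31 CPM in WT TAC libraries, against 2.5, 2.41 and 1.32 CPM in KO sham and 0.813 and 0.787 CPM in WT sham libraries. Every TAC library was above every sham library. In KO its log2 change was 1.24 ± 0.40 (edgeR adjusted p = 0.0980). It rose 7.43-fold in WT (log2 2.89 ± 0.50, edgeR adjusted p = 0.00793), a call lost without WT sham 1 or WT sham 2 (0.107 and 0.102), and over both genotypes (1.90 ± 0.38, adjusted p = 0.00437) in each setting. Kcne3, another small subunit, measured 0.715, 1.10 and 2.86 CPM in KO TAC and 1.37, 1.99 and 0.883 CPM in WT TAC libraries, against 0.649, 0.181 and 0.208 CPM in KO sham and 0.250 and 0.866 CPM in WT sham libraries. WT sham 2 lay within the TAC range. Kcne3 had 7, 3 and 3 counts in KO sham and 4 and 11 counts in WT sham libraries, against 15 to 50 counts in TAC libraries. It thus passed the limit for a test only through TAC libraries, where it was high, and a rise was favoured by that limit. Its rise over both genotypes (log2 1.81 ± 0.58, edgeR adjusted p = 0.0430) was lost in 10 of 18 settings, including without KO TAC 2, KO TAC 3, WT TAC 1, WT TAC 2, KO sham 2, KO sham 3 or WT sham 1 (0.0589 to 0.121).

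Kcne1 measured 6.24, 5.84 and 26.7 CPM in KO TAC and 32.8, 13.03 and 8.05 CPM in WT TAC libraries, against 7.97, 6.22 and 7.50 CPM in KO sham and 4.13 and 2.44 CPM in WT sham libraries. KO TAC 3 and WT TAC 1 were high and the KO groups overlapped. It did not pass in WT (log2 2.44 ± 0.75, edgeR adjusted p = 0.0688) or over both genotypes (1.51 ± 0.52, adjusted p = 0.0601). Kcnmb1, the smooth muscle subunit of the large-conductance channel, measured 4.15, 1.79 and 2.80 CPM in KO TAC and 1.07, 1.40 and 2.28 CPM in WT TAC libraries, against 1.67, 1.33 and 2.15 CPM in KO sham and 1.38 and 0.630 CPM in WT sham libraries. The groups overlapped (log2 0.72 ± 0.37, edgeR adjusted p = 0.193). Kcnip3, Kcne1l, Kcnab1, Kcnab2 and Kcnab3 averaged under 0.4 RPKM and did not pass. Kcnq1ot1, the antisense RNA of the Kcnq1 imprinted domain and the only tested RNA gene, ranged from 0.400 to 1.95 CPM in TAC and from 0.185 to 1.57 CPM in sham libraries and did not pass (log2 0.20 ± 0.57, adjusted p = 0.842).

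The comparison of KO with WT asks whether these genes differed between the libraries labelled KO and WT. Lmnb2 was lower in every KO than in every WT library after sham, but not after TAC. The comparison after TAC and the interaction therefore cannot be read as effects of lamin B2 loss. No Kcn gene passed after TAC or after sham, and none passed for the interaction, the difference between the response to TAC in KO and that in WT. By edgeR this was 0% of all genes tested in each of the 3 comparisons, and for members DESeq2 and limma-voom also gave 0. At an unadjusted p under 0.05, edgeR gave 2 of 49 members after TAC, 2 after sham and 4 for the interaction, where 6.36%, 1.27% and 2.97% of all genes lay under that p. A threshold missed in groups of 2 or 3 libraries does not show that the genotypes are alike.

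The members with the smallest p were few. After TAC, Kcna4, a pore of the slow transient outward current, measured 1.24, 0.867 and 0.972 CPM in KO and 3.75, 2.69 and 3.06 CPM in WT libraries, with no overlap (log2 -1.62 ± 0.58, edgeR unadjusted p = 0.0157, adjusted p = 0.747). After sham it measured 2.5, 2.23 and 0.417 CPM in KO and 1.25 and 0.866 CPM in WT libraries, which overlapped. Next came Kcnj2, whose KO values lay above all WT values after TAC (log2 0.76 ± 0.31, adjusted p = 0.747) and below all WT values after sham (-0.78 ± 0.34, adjusted p = 1). The third after TAC was Kcnab3, a beta subunit, at 0.381, 0.289 and 0 CPM in KO and 0.655, 0.818 and 0.987 CPM in WT libraries (log2 -1.82 ± 0.91, edgeR adjusted p = 0.747). Kcnab3 had 8, 5 and 0 counts in KO TAC, 11, 14 and 19 in WT TAC and 2 to 7 in sham libraries. It passed the limit for a test only through WT TAC, where it was high, so a lower value in KO TAC was favoured by that limit. After sham the smallest p was that of Kcne4, with KO values above both WT values (log2 1.36 ± 0.49, adjusted p = 1), and the third that of Kcnv2 (0.70 ± 0.41, adjusted p = 1), where WT sham 1 was the low library. For the interaction the 3 smallest p belonged to Kcnj2 (log2 1.54 ± 0.46, unadjusted p = 0.00552), Kcne4 (-1.65 ± 0.62, unadjusted p = 0.0198) and Kcna4 (-2.30 ± 0.89, unadjusted p = 0.0231), all with an edgeR adjusted p of 0.992. The fall of Kcnj2 called in WT and not in KO is therefore not shown to differ between the genotypes. The plot of changes shows the members with their standard errors.

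**Figure D3:**
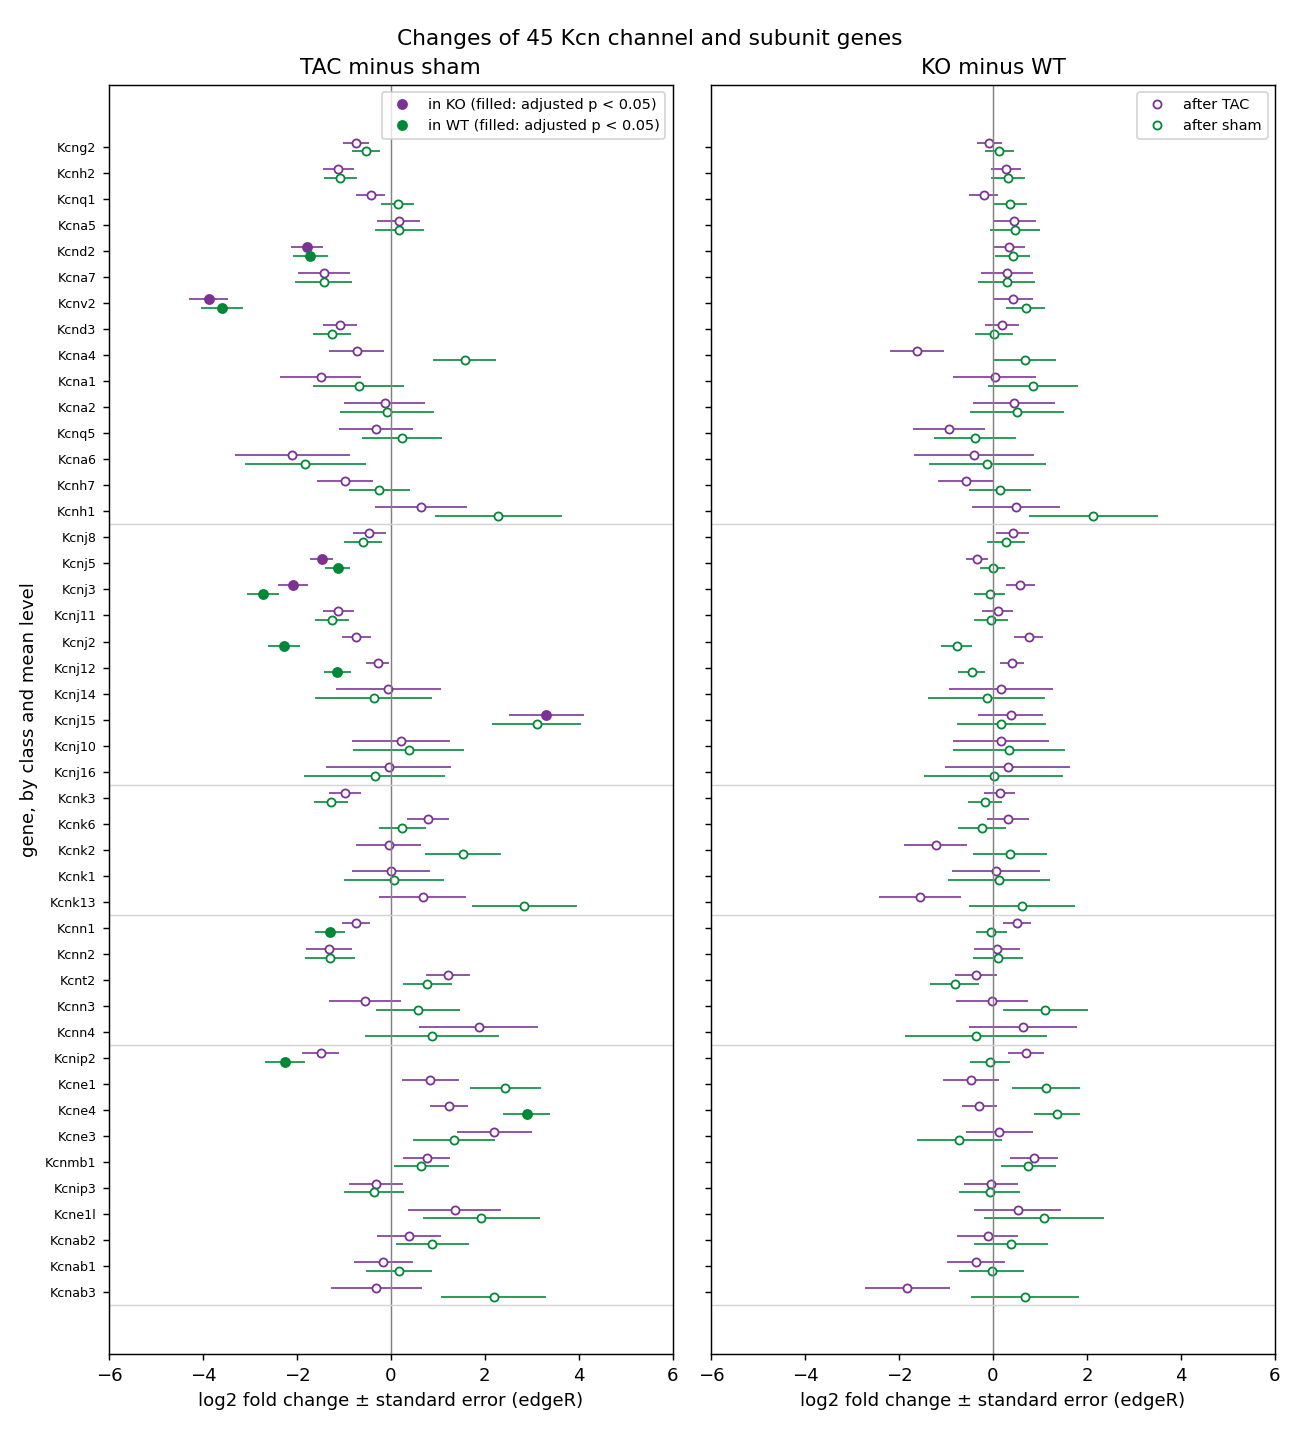
Log2 fold change of 45 tested Kcn genes other than the RNA gene, with its standard error (edgeR), for TAC minus sham (left; KO purple, WT green) and KO minus WT (right; after TAC purple, after sham green), by class and mean level. Filled points have an adjusted p under 0.05. These lie mostly left of 0 on the left side, with Kcnj15 and Kcne4 to the right, and there are none on the right side.

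Kcn proteins work with partner genes, and 23 of these were listed by known role, 19 of them tested. In KO no partner passed, where 1.37% of all genes fell and 3.32% rose. In WT 1 fell, Abcc9, and none rose, where 3.04% of all genes fell and 3.88% rose. Over both genotypes Abcc9, Amigo1, Ank2 and Dlg1 fell and Calm2 rose, where 8.96% of all genes fell and 10.6% rose. Amigo1, a membrane partner of voltage-gated channels, measured 15.8, 7.97 and 8.01 CPM in KO TAC and 4.17, 6.72 and 10.7 CPM in WT TAC libraries, against 16.2, 16.6 and 17.2 CPM in KO sham and 18.01 and 18.2 CPM in WT sham libraries, and fell without overlap (log2 -0.95 ± 0.27, edgeR adjusted p = 0.0251). Ank2, ankyrin that anchors channels and transporters, changed by -0.85 ± 0.27 (adjusted p = 0.0398), Dlg1, a scaffold of voltage-gated and inward rectifier channels, by -0.55 ± 0.17 (adjusted p = 0.0421), and Calm2, a calmodulin gene, by 0.65 ± 0.19 (adjusted p = 0.0312). Irx3 and Irx5, transcription factors that shape the gradient of Kcnd2 across the mouse ventricular wall, differed by -0.26 ± 0.27 and 0.10 ± 0.27 (adjusted p 0.527 and 0.826). The median log2 change of the 19 partners was -0.26 over both genotypes, against 0.05 over all genes.

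Marker genes of the cell types in ventricle moved with surgery. Over all genes tested, 8.96% fell and 10.6% rose over both genotypes. Of 8 cardiomyocyte markers, Tnni3, Pln and Ryr2 fell over both genotypes and none rose, and the summed list ran from 28920.3 to 38538 CPM in KO TAC and 31640 to 43472 CPM in WT TAC libraries, against 48733 to 61446 CPM in KO sham and 43193 to 57643 CPM in WT sham libraries. All 6 macrophage markers rose over both genotypes, with a summed list of 250.2 to 326.0 CPM in KO TAC and 201.1 to 512.3 CPM in WT TAC libraries, against 110.2 to 124.3 CPM in KO sham and 94.1 to 124.0 CPM in WT sham libraries. Of 7 fibroblast markers 3 rose, with a summed list of 1433 to 1661 CPM in KO TAC and 1713 to 2486 CPM in WT TAC libraries, against 772.3 to 1052 CPM in KO sham and 722.4 to 758.1 CPM in WT sham libraries. Of the 8 pericyte and smooth muscle markers 3 rose and 1, Abcc9, fell. Of the other lists, 1 of 5 tested pacemaker and conduction markers fell, 2 of 5 Schwann cell and neuron markers rose, 1 of 2 skeletal muscle markers rose and 1 fell, and none passed among 7 endothelium, 2 lymphocyte, 2 fat cell and 4 red blood cell markers. Over both genotypes Tnni3 changed by -1.22 ± 0.21, Pln by -1.05 ± 0.19 and Ryr2 by -0.65 ± 0.21 (log2, SE), with a cardiomyocyte list median of -0.45. The part of these cell types in the results on Kcn genes was not tested.

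Kcnj10, Kcnj14 and Kcnj16, singled out after their values were seen, differed more between libraries of 1 group than between groups. Kcnj16 had no count in KO sham 1, WT sham 1 and WT TAC 1, and 0.818 to 2.20 CPM in the other 8 libraries. Kcnj10, with which it forms channels in other tissues, had 0.179 to 0.278 CPM in the same 3 libraries and 2.69 to 4.41 CPM in the others. The share of ribosomal protein counts was 1.72% in KO sham 1, 1.52% in WT sham 1 and 6.73% in WT TAC 1. It was 3.21% in KO TAC 2, 3.17% in KO TAC 3 and 4.00% in WT TAC 2, where Kcnj10 had 3.29, 2.69 and 3.62 CPM. Kcnj14 was high in another set, at 9.39 CPM in KO TAC 1, 5.54 and 5.38 CPM in WT TAC 1 and 2, 13.5 CPM in KO sham 1 and 9.92 CPM in WT sham 2, against 0.625 to 2.31 CPM in the rest. None of the 3 passed in any comparison, as the plot of uneven genes shows beside Kcne1. The part of library composition in these differences was not tested.

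**Figure D4:**
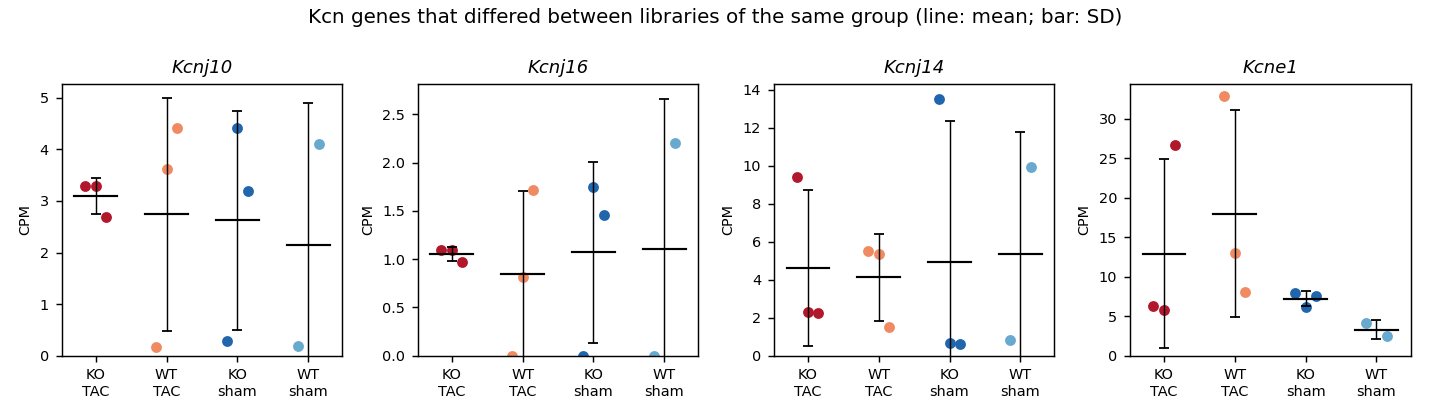
TMM-scaled CPM of Kcnj10, Kcnj16, Kcnj14 and Kcne1 in each library (points), with the group mean (line) and SD (bar), for KO TAC, WT TAC, KO sham and WT sham. Kcnj10 and Kcnj16 lie at or near 0 in 1 library of each group except KO TAC, and Kcne1 is above 25 CPM in KO TAC 3 and WT TAC 1.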

How the data were processed

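Bulk RNA-seq of ventricular myocardium from 11 libraries was analysed. The authors deposited raw counts per Ensembl gene ID. Per the submitters' processing notes STAR 2.5.1, featureCounts and DESeq2 were used with build GRCm38. The sources used here do not state the roles of these tools, the strand setting, the annotation version or the handling of multi-mapped reads. Symbols, positions and exon lengths came from GENCODE M21 (46005 of 46517 IDs matched; the other 512 held 0.0198% of counts).

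Counts were tested with edgeR 4.0.16 in R 4.3.3 (filterByExpr by group, TMM scaling, quasi-likelihood F-test over all 4 groups with 7 residual degrees of freedom, Benjamini-Hochberg threshold 0.05 over the 14619 genes tested), in 6 contrasts. Comparisons over both genotypes used the surgery term of a separate fit with genotype and surgery terms, which assumes a common response in KO and WT. The 7 residual degrees of freedom belong to the fit by group. Standard errors are the log2 change divided by the square root of F and are approximate. The fit was tested on simulated data. Alternatives were DESeq2 1.42.0, limma-voom 3.58.1, library totals, no filter, the letter ending each title or the ribosomal protein share as a term, and libraries left out. RPKM used the union of exon lengths. Genes given in full were those called, known cardiac channels, the 3 highest of each class and, where none was called, the 3 smallest p. The members and all gene lists (partners, cardiomyocyte, atrial, pacemaker and conduction, fibroblast, endothelium, pericyte and smooth muscle, macrophage, lymphocyte, Schwann cell and neuron, fat cell, skeletal muscle and red blood cell markers) were chosen with earlier results of these data known. Floors cover counting error only. Some members enter the fits and counts but are not reported here by name.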

Additional observations from a re-analysis of the deposited data

Results flagged for a closer look

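Kcnj2 and Kcnj12, the inward rectifier pore genes of the resting potential, had genotype differences of opposite direction after TAC and after sham. For both genes every KO library lay above every WT library after TAC and below every WT library after sham. Both were picked by a screen of the 49 tested members for opposite differences in every library, so this pattern was a condition of the choice. The share of all genes with such a pattern was not computed, and the p-values below come from the same values. The response to TAC in KO minus that in WT was 1.54 ± 0.46 (log2, SE) for Kcnj2 (edgeR unadjusted p = 0.00552) and 0.86 ± 0.38 for Kcnj12 (unadjusted p = 0.0427). Neither passed adjustment over all genes (edgeR interaction test, adjusted p = 0.992 for both), and Lmnb2 itself did not follow the KO label after TAC.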

How the results depend on the processing

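Over both genotypes the count of 18 called Kcn genes ranged from 12 to 23 over the alternatives, but its balance moved: 15 lower and 3 higher became 7 lower and 5 higher with library totals. No named call reversed. In KO the count of 5 became 8 with library totals, 8 with DESeq2, 10 with no filter, 9 with the ribosomal protein share and 15 without KO TAC 1 and WT TAC 3; leaving out each library gave 3 to 13. In WT the count of 9 became 14 with DESeq2, 16 with no low-count filter, 5 with the ribosomal protein share as a term and 18 without KO TAC 1 and WT TAC 3; leaving out each library in turn gave 2 to 15. The cause was not tested. Counts of KO against WT and of the interaction were 0 in each setting. Leaving out a WT sham library leaves 1, which is then assumed to vary like the other groups. No paired analysis was possible because the labels carry no replicate number that ties libraries across groups. Depth limits what can be said of the 50 untested genes, each with at most 82 counts in all.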
